A study of Mus musculus with 9 samples.

Results

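Interferon-stimulated genes are the genes that a cell switches on when it senses interferon, and 39 of them are described here in mouse brain after haemorrhage. The members were taken by symbol from the deposited expression table, 39 of its 36346 genes, and each symbol had 1 entry. Brain of C57BL/6 wild-type mice was sequenced 72 hours (3 days) after a control (sham) treatment, after intracerebral haemorrhage (ICH, bleeding into the brain), or after ICH with pterostilbene (ICH+PTE), with 3 mice and 3 libraries in each group. Pterostilbene is a plant stilbenoid, a dimethylated analog of resveratrol. 3 comparisons follow from the design: ICH against sham, ICH+PTE against ICH, and ICH+PTE against sham. How ICH was made, the dose, route and timing of PTE, the brain region, and the age and sex of the mice are details not given in sources used here. There was no group given PTE without ICH.

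Type I interferons (alpha and beta) signal through the receptor pair IFNAR1 and IFNAR2 and the kinases JAK1 and TYK2. Downstream, STAT2 and IRF9 take part in a complex that binds a DNA motif called the interferon-stimulated response element (ISRE). Interferon gamma signals through its own receptor to a second motif, the gamma-activated site (GAS). The induced genes make proteins that sense foreign nucleic acid, block viral entry and translation, tag proteins, and switch the response off again. In the brain, microglia, infiltrating myeloid cells, astrocytes and endothelium can all express such genes.

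The promoters show the DNA letters through which these genes are read, and a few are printed to show how the motifs sit. Of the 39 members 30 had an entry by symbol in the RefSeq promoter table of build GRCm38.p6, which holds 300 bases a gene start, 250 before the start and 50 from it on. For the ISRE the letters GAAA, any 2 bases and GAAA again were searched on both strands, and for the GAS the letters TTC, any 3 bases and GAA. An ISRE stood in the promoter of 16 of the 30 members (53.3%), against 1079 of all 27025 genes in the table (3.99%). A GAS stood in 8 of the 30 (26.7%), against 9.55% of all genes. Both motifs were found in Bst2, Ifitm3, Oas1a and Gbp7, and 10 members had neither in this window. In Bst2 and Ifitm3 an ISRE and a GAS share letters, which makes 2 overlapping pairs. A match describes letters and does not show binding.

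The first 6 promoters below hold an ISRE, and Cmpk2 is shown because it is the neighbour of Rsad2 on chromosome 12, has neither motif in this window and behaved differently. Irf7, Irf9, Oasl2, Samd9l, Herc6, Dtx3l, Xaf1 and Lgals3bp have neither motif too, and they were higher after ICH. Each printed promoter is written 5′ to 3′ on the gene's own strand, with ISRE and GAS letters in capitals and overlapping matches run together. Isg15 (chr4:156200769-156201068, minus strand) has 3 overlapping ISREs between 78 and 57 bases before its start. Bst2 (chr8:71537423-71537722, minus strand) has a GAS that runs into 2 ISREs. Oas1a (chr5:120907476-120907775, minus strand) has 2 overlapping ISREs within 20 bases before its start and a GAS farther upstream. Ifit3 (chr19:34583279-34583578, plus strand) has 2 separate ISREs, both on the opposite strand. Ifitm3 (chr7:141010695-141010994, minus strand) carries its motifs just after the start. Rsad2 (chr12:26456403-26456702, minus strand) has 1 ISRE, and Cmpk2 (chr12:26468965-26469264, plus strand) has none.
Isg15: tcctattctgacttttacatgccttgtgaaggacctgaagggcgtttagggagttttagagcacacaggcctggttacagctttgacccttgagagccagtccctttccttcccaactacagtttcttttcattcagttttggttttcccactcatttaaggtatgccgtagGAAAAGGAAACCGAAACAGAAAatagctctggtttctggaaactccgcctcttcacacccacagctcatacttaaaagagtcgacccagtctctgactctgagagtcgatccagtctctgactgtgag
Bst2: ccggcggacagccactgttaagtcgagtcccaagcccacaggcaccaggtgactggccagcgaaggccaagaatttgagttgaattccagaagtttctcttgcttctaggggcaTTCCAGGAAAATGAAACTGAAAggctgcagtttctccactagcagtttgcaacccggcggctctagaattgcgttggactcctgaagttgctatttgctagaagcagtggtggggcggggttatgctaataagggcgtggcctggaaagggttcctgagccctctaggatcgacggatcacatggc
Oas1a: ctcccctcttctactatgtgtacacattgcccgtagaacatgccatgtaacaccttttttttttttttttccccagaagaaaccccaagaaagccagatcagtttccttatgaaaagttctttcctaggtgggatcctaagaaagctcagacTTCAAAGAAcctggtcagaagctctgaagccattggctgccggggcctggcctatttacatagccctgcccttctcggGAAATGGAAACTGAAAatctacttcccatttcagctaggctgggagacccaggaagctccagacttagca
Ifit3: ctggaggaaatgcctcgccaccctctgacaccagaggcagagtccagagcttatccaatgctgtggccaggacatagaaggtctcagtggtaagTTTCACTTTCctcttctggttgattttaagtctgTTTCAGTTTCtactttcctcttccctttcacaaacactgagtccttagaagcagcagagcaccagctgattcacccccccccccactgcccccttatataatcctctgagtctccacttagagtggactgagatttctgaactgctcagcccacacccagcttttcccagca
Ifitm3: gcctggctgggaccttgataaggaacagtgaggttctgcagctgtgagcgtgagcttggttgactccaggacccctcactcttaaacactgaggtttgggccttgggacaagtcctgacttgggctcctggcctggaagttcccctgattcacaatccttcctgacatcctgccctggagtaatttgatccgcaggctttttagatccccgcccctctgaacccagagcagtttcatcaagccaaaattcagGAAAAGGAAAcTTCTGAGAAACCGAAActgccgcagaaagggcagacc
Rsad2: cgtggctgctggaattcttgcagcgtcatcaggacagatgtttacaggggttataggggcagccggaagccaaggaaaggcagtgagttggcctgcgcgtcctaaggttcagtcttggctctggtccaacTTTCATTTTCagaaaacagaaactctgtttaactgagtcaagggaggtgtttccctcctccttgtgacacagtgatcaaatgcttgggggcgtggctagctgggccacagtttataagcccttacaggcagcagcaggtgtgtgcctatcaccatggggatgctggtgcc
Cmpk2: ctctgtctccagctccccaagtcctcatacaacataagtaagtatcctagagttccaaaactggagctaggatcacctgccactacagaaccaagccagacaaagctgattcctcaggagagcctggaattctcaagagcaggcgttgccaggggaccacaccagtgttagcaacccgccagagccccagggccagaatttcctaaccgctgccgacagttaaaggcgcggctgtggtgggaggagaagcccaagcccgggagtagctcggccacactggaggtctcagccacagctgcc

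**Figure D1:**
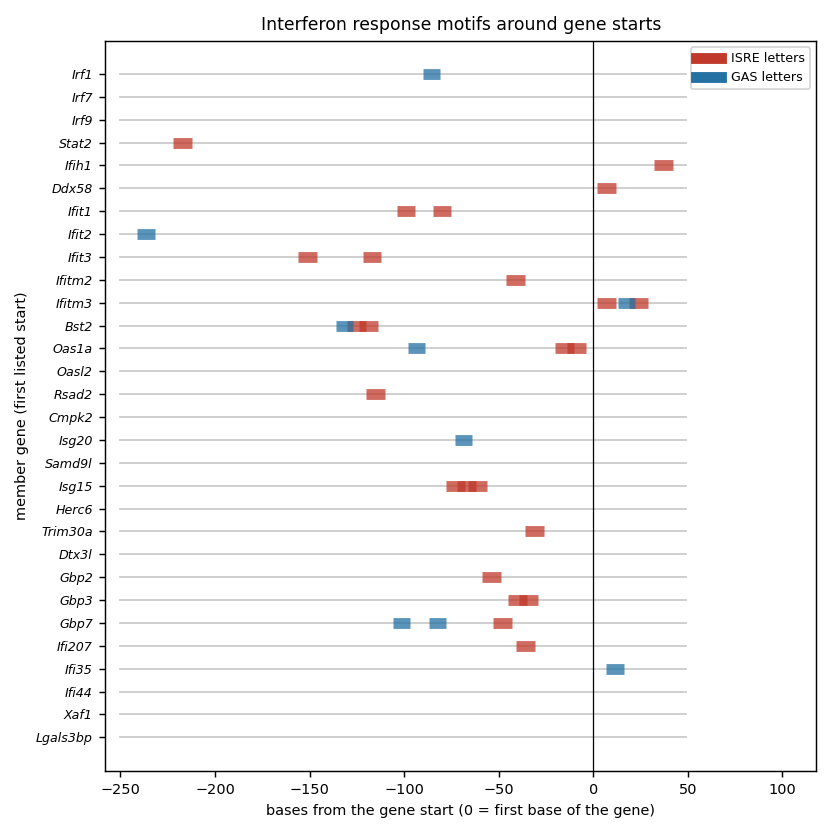
Positions of ISRE letters (red) and GAS letters (blue) on either strand in the promoters of the 30 matched members, in bases from the gene start (x axis), 1 member a row (the first listed start where a gene has several). Motifs were found in 20 members and lie on both sides of the start, most of them within 156 bases before it.

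All values below are FPKM (fragments per kilobase of transcript, scaled by each library's mapped total), which allows levels of different genes to be set side by side. The first principal component of all tested genes held 71.5% of the variance. Markers of neurons were present, with 8 neuronal genes summing to 505 to 553 FPKM in sham, 165 to 234 after ICH and 375 to 553 in ICH+PTE. Mitochondrially encoded transcripts took 13.6% to 16.7% of all FPKM in ICH libraries and 21.7% to 28.9% in the others, which bears on the scaling of every gene. ICH+PTE 3 stood apart in the summed level of 6 erythroid genes, at 266 FPKM against at most 92.3 elsewhere. Defa24, a defensin of intestinal Paneth cells, was listed at 2.92, 0.833 and 2.53 FPKM in the ICH+PTE libraries and at 0 in the other 6. The 25 small-intestine genes of its list summed to 16.5 to 30.5 FPKM in ICH+PTE and 13.6 to 25.8 in the others. Of the 25, 14 had every ICH+PTE library above every sham library and 0 had them below, against 18% and 20.7% of all genes tested. Against ICH 11 had them above and 2 below, where 30.3% and 34.5% of all genes tested did. Zg16 of intestinal mucus was among the 11, and 4 of the 25 reached the filter. The part of such RNA in the results was not tested. Depth could not be recovered from the FPKM values, so no counting interval is given.

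After ICH nearly the whole set stood higher than in sham. A gene was tested where it reached 1 FPKM in at least 3 libraries, and called at a limma adjusted p under 0.05. Of the 38 members tested 36 were called higher in ICH and 0 lower, where 31.6% of the 15376 genes tested were called higher and 32.1% lower (63.7% in either direction). On log2(FPKM + 0.5), the scale of every difference given here, the median difference of all 39 members, the untested Ifi44 included, was 1.68 (range -0.33 to 3.53). Over all genes tested it was -0.02. In 38 of the 39 members every ICH library lay above every sham library, as in 35.7% of all genes tested, and Cmpk2 was the exception. The steepest ratios of mean FPKM were 18.2-fold for Ifi207, 12-fold for Bst2 and 11.2-fold for Ifitm2. Ifi44, an interferon-induced antiproliferative protein, was too low to be tested, with 0.0960, 0.147 and 0.102 FPKM in sham, 0.477, 0.655 and 0.661 in ICH, and 0.188, 0.229 and 0.137 in ICH+PTE. It was higher in every ICH library than in any other library.

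The test for low values bears on these counts. Ifih1, Zbp1, Rsad2, Mx1 and Isg20 passed it only because the ICH libraries were included, and members so admitted had to differ. Of the other 33 tested members 31 were called higher in ICH, 25 lower in ICH+PTE than in ICH, and 17 higher in ICH+PTE than in sham. Over all genes tested these shares were 31.6%, 30.5% and 11.3%, and the shares of all genes passing without the ICH libraries were not computed. With no filter on low values 36 of the 39 were called higher in ICH, where 5472 of all 36346 genes were called higher. The 38 tested members are not independent of each other, since they are genes that respond to the same signals. The members and the further lists below were also chosen with earlier results of these data known. Their counts beside the shares of all genes are therefore a description and not independent support.

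In mice given PTE the set stood between the other groups. Of the 38 tested members 30 were called lower in ICH+PTE than in ICH and 0 higher, where 30.5% of all genes tested were called lower and 26.4% higher. The median difference of all 39 members from ICH was -1.1 (range -2.73 to 0.04), against -0.02 over all genes tested. In 33 of the 39 members all ICH+PTE libraries lay below all ICH libraries, as in 34.5% of all genes tested (30.3% lay above), and the overlapping members were Stat2, Ifit1, Ifit2, Cmpk2, Herc6 and Xaf1.

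Against sham, 18 of the 38 members were still called higher in ICH+PTE and 0 lower, where 11.3% of all genes tested were called higher and 12.1% lower (23.4% in either direction). The median difference of all 39 members from sham was 0.56, against -0.03 over all genes tested. In 26 members all ICH+PTE libraries lay above all sham libraries, as in 18% of all genes tested, and in Cmpk2 they lay below, as in 20.7%. This count of 18 hung on single libraries. It was 10 without sham 2, 8 without sham 3 and 9 without ICH+PTE 2, and 8 with no filter on low values. Calls higher over all genes fell too, from 1736 of 15376. They were 1161 of 15217, 1019 of 15211, 1226 of 15269 and 1356 of 36346 in the same order. The 8 members called under every alternative listed with the methods were Irf1, Stat2, Ifitm2, Ifitm3, Gbp2, Gbp7, Ifi204 and Ifi207, of which Gbp2 lost its call without both sham 1 and ICH+PTE 1 (limma adjusted p = 0.0561), a choice added after seeing the values. The 3 comparisons share groups of mice, so their counts are given side by side and not as independent results.

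**Figure D2:**
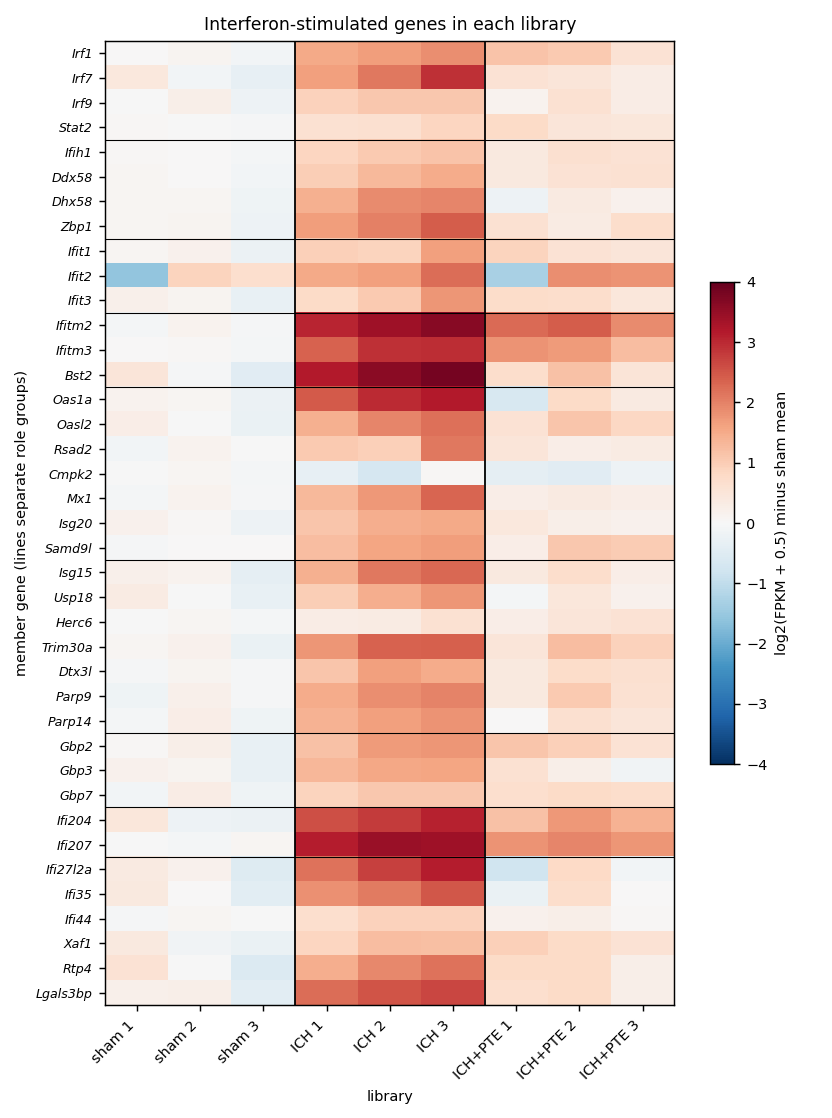
Log2(FPKM + 0.5) of each of the 39 members (rows, grouped by role) in each of the 9 libraries (columns), minus the mean of the 3 sham libraries, with red above and blue below that mean. The 3 ICH columns are red in nearly every row, the ICH+PTE columns are paler, Cmpk2 stays near or under 0, and Ifit2 is blue in sham 1 and ICH+PTE 1.

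By their calls the members fell into a few patterns. Called higher in ICH than sham, lower in ICH+PTE than ICH, and still higher than sham were 14 members: Irf1, Ifih1, Ddx58, Ifitm2, Ifitm3, Bst2, Oasl2, Samd9l, Trim30a, Dtx3l, Parp9, Gbp2, Ifi204 and Ifi207. Another 16 were called higher in ICH and lower in ICH+PTE with no call between ICH+PTE and sham: Irf7, Irf9, Dhx58, Zbp1, Oas1a, Rsad2, Mx1, Isg20, Isg15, Usp18, Parp14, Gbp3, Ifi27l2a, Ifi35, Rtp4 and Lgals3bp. Stat2, Ifit1, Gbp7 and Xaf1 were called higher than sham in both ICH and ICH+PTE with no call between those groups. Ifit3 and Herc6 were called higher in ICH only, and Ifit2 and Cmpk2 in no comparison. A missing call does not show that groups were alike, and the 14 and the 16 were not tested against each other.

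The transcription factors carry the response and amplify it. Irf7, which amplifies type I interferon production, was at 2.34, 1.46 and 1.17 FPKM in sham, 6.01, 8.58 and 15.3 in ICH, and 2.65, 2.45 and 2.07 in ICH+PTE. All ICH libraries were above the rest, ICH 3 far above ICH 1, while the sham and ICH+PTE libraries overlapped. Irf7 rose by 2.22 ± 0.296 (SE) from sham to ICH (limma adjusted p = 1.13e-04) and fell by 1.76 from ICH to ICH+PTE (limma adjusted p = 7.23e-04), and ICH+PTE differed from sham by 0.46 (limma adjusted p = 0.291).

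Stat2, which joins IRF9 on the ISRE, was the most abundant factor, at 5.40, 5.09 and 5.00 FPKM in sham, 8.15, 8.35 and 9.70 in ICH, and 9.04, 7.48 and 7.31 in ICH+PTE. The sham libraries lay lowest, and the ICH and ICH+PTE libraries overlapped. It rose by 0.70 ± 0.112 in ICH (limma adjusted p = 3.46e-04) and was 0.57 above sham in ICH+PTE (limma adjusted p = 0.00634). Between ICH+PTE and ICH it differed by -0.13 ± 0.112 (limma adjusted p = 0.338).

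Irf9, the DNA-binding partner of STAT2, was at 3.13 to 4.45 FPKM in sham, 7.41 to 8.41 after ICH and 4.16 to 5.95 in ICH+PTE. It rose by 1.02 in ICH and fell by 0.67 under PTE (limma adjusted p = 2.09e-04 and 0.00388). Irf1, a factor that interferon gamma induces and that has a GAS in its own promoter, was at 1.40 to 1.72 FPKM in sham, 5.48 to 6.95 after ICH and 2.59 to 4.07 in ICH+PTE. The 3 groups of Irf1 did not overlap, and all 3 comparisons were called (limma adjusted p = 1.56e-05 for ICH against sham, 0.00270 for ICH+PTE against ICH and 0.00371 for ICH+PTE against sham).

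The 4 sensors of foreign nucleic acid all rose in ICH and fell in ICH+PTE. Dhx58 encodes LGP2, which regulates the RNA sensors MDA5 and RIG-I. Its values were 1.09, 1.08 and 0.823 FPKM in sham, 3.52, 5.08 and 5.32 in ICH, and 0.801, 1.42 and 1.18 in ICH+PTE. The ICH libraries stood apart, and the ICH+PTE libraries lay on both sides of sham. Dhx58 rose by 1.76 ± 0.194 (limma adjusted p = 3.35e-05), fell by 1.65 from ICH to ICH+PTE (limma adjusted p = 9.7e-05), and differed from sham by 0.11 in ICH+PTE (limma adjusted p = 0.708).

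Zbp1, a sensor of left-handed nucleic acid that can trigger cell death, was at 0.471, 0.491 and 0.293 FPKM in sham, 2.42, 3.18 and 4.39 in ICH, and 0.895, 0.658 and 0.997 in ICH+PTE. Each group lay apart from the others, with sham lowest. It rose by 2.04 ± 0.209 in ICH (limma adjusted p = 2.27e-05) and fell by 1.48 (limma adjusted p = 2.65e-04), and the 0.55 that remained over sham was not called (limma adjusted p = 0.0810). Zbp1, like Ifih1, passed the filter only through the ICH libraries, so its calls in the comparisons with ICH were favoured by the filter. Ifih1 (MDA5) and Ddx58 (RIG-I), the RNA sensors themselves, rose by 1.01 and 1.26 in ICH, and stayed 0.53 and 0.52 above sham in ICH+PTE (limma adjusted p = 0.0283 and 0.0341), calls that were each lost under 10 of 19 alternatives. The fall of Ifih1 from ICH to ICH+PTE, by 0.48, lost its call when haemoglobin and mitochondrially encoded genes were left out of the scaling, and without ICH 2 or ICH 3.

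The IFIT proteins bind viral RNA and block its translation, and their genes lie side by side on chromosome 19. Ifit3 was at 9.78, 8.99 and 6.66 FPKM in sham, 14.7, 17.8 and 29.4 in ICH, and 14.4, 14.1 and 11.6 in ICH+PTE. ICH 3 was well above the other ICH libraries, and ICH 1 was close to the highest ICH+PTE library. Ifit3 rose by 1.19 ± 0.231 in ICH (limma adjusted p = 0.00123), and the -0.55 between ICH+PTE and ICH and the 0.64 between ICH+PTE and sham were not called (limma adjusted p = 0.0628 and 0.0729). Each of these 2 differences was called under 2 of 19 alternatives. Ifit1, with 1.26 to 1.82 FPKM in sham, 3.34 to 5.99 after ICH and 2.40 to 3.39 in ICH+PTE, rose by 1.16 in ICH and was 0.66 above sham in ICH+PTE (limma adjusted p = 8.94e-04 and 0.0493), and the second call was lost under 15 of 19 alternatives. The -0.50 between ICH+PTE and ICH was not called (limma adjusted p = 0.0685), but was called under 2 of 19 alternatives.

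Ifit2 differed widely between libraries of the same group. It was at 0.146, 3.09 and 2.56 FPKM in sham, 5.00, 5.45 and 8.61 in ICH, and 0.276, 6.50 and 6.21 in ICH+PTE. Sham 1 and ICH+PTE 1 were near 0, and the ICH libraries still lay above all of sham. The difference of 1.80 ± 0.846 between ICH and sham was not called (limma adjusted p = 0.0868), nor were those between ICH+PTE and ICH (-1.01, limma adjusted p = 0.329) and between ICH+PTE and sham (0.79, limma adjusted p = 0.531). The difference between ICH and sham was called under 4 of 19 alternatives, with limma adjusted p from 0.0122 to 0.303 over all of them. Without sham 1 and ICH+PTE 1, a choice made after seeing the values, Ifit2 was 1.01 higher in ICH than in sham (limma adjusted p = 0.00319) and 1.05 higher in ICH+PTE than in sham (limma adjusted p = 0.0186), and ICH+PTE and ICH differed by 0.04 (limma adjusted p = 0.888). Ifit1 and Ifit3 were not low in those libraries, and nothing that could set Ifit2 apart there was tested.

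The membrane restriction factors included Ifitm3 and Bst2, the members with the highest mean FPKM over all libraries. Ifitm3, which blocks the fusion of viruses in endosomes, was at 20.1, 20.7 and 19.1 FPKM in sham, 104, 155 and 157 in ICH, and 70.6, 65.5 and 47.1 in ICH+PTE. The groups did not overlap, and ICH+PTE lay well above sham. It rose by 2.74 ± 0.184 in ICH (limma adjusted p = 2.13e-06), fell by 1.17 from ICH to ICH+PTE (limma adjusted p = 4.86e-04) and was 1.57 above sham in ICH+PTE (limma adjusted p = 5.03e-04).

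Bst2 encodes tetherin, which holds budding viruses on the cell surface. It was at 11.6, 7.72 and 5.81 FPKM in sham, 75.9, 104 and 119.9 in ICH, and 13.5, 19.0 and 11.7 in ICH+PTE. ICH stood far above both other groups, and the lowest ICH+PTE library was just above the highest sham library. The rise of 3.53 ± 0.256 in ICH (limma adjusted p = 3.14e-06) and the fall by 2.73 from ICH to ICH+PTE (limma adjusted p = 3.01e-05) were the largest of any tested member, and 0.80 remained over sham (limma adjusted p = 0.0459, a call lost under 10 of 19 alternatives).

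Ifitm2, a relative of Ifitm3 with the same action, was at 5.69 to 6.78 FPKM in sham, 54.2 to 82.7 after ICH and 23.9 to 35.0 in ICH+PTE. Its 2.19 ± 0.173 over sham in ICH+PTE was the largest such difference of any tested member (limma adjusted p = 7.61e-05). Bst2 and Ifitm2 thus differed in level from sham by similar amounts in ICH and by unlike amounts in ICH+PTE, a comparison between genes that was not tested.

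The antiviral enzymes included both strong responders and Cmpk2. Oas1a, which makes the oligoadenylate that activates RNase L, was at 1.73, 1.66 and 1.23 FPKM in sham, 10.7, 15.6 and 17.7 in ICH, and 0.805, 2.92 and 2.12 in ICH+PTE. ICH lay far above the rest, and ICH+PTE 1 was below every sham library. Oas1a rose by 2.88 ± 0.316 in ICH (limma adjusted p = 3.33e-05), fell by 2.71 from ICH to ICH+PTE (limma adjusted p = 9.36e-05) and differed from sham by 0.16 in ICH+PTE (limma adjusted p = 0.740).

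Rsad2 encodes viperin, which makes a chain-terminating nucleotide, and Cmpk2, the kinase that supplies its substrate, lies beside it on the other strand. Rsad2 was at 0.606, 0.820 and 0.695 FPKM in sham, 2.01, 1.85 and 4.73 in ICH, and 1.19, 0.951 and 0.998 in ICH+PTE, so that ICH 3 was more than double the other ICH libraries. It rose by 1.38 ± 0.271 in ICH and fell by 1.02 from ICH to ICH+PTE (limma adjusted p = 0.00133 and 0.00898). Rsad2 passed the filter only through the ICH libraries, which favoured both calls. Cmpk2 was at 6.42, 6.79 and 6.15 FPKM in sham, 5.00, 3.85 and 6.64 in ICH, and 4.92, 4.56 and 5.53 in ICH+PTE.

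Cmpk2 was the member that was not higher after ICH. Its ICH libraries overlapped those of sham, and its ICH+PTE libraries lay below them. The difference of -0.33 ± 0.164 between ICH and sham was not called (limma adjusted p = 0.108). It was called lower, by 0.60, when haemoglobin and mitochondrially encoded genes were left out of the scaling (limma adjusted p = 0.0104) and by 0.51 without ICH 3 (limma adjusted p = 0.0135), with adjusted p from 0.0104 to 0.404 over all alternatives.

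The other enzymes and effectors all rose in ICH and fell in ICH+PTE. Oasl2, a relative of the oligoadenylate synthetases, rose by 1.86 and fell by 1.02. Mx1, of which only the RNA was measured, rose by 1.79 and fell by 1.49, with 0.317 to 0.454 FPKM in sham, 1.65 to 3.83 after ICH and 0.544 to 0.620 in ICH+PTE. Isg20, an RNA exonuclease, rose by 1.36 and fell by 1.08. Mx1 and Isg20 passed the filter only through the ICH libraries, which favoured their calls in the comparisons with ICH. Samd9l, which curbs translation, rose by 1.5, and its fall by 0.70 lost its call with no filter, with haemoglobin and mitochondrially encoded genes left out of the scaling, and without ICH 2 or ICH 3. Of these 4, Oasl2 and Samd9l were called above sham in ICH+PTE (limma adjusted p = 0.0250 and 0.0261), calls lost under 5 and 7 of 19 alternatives.

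**Figure D3:**
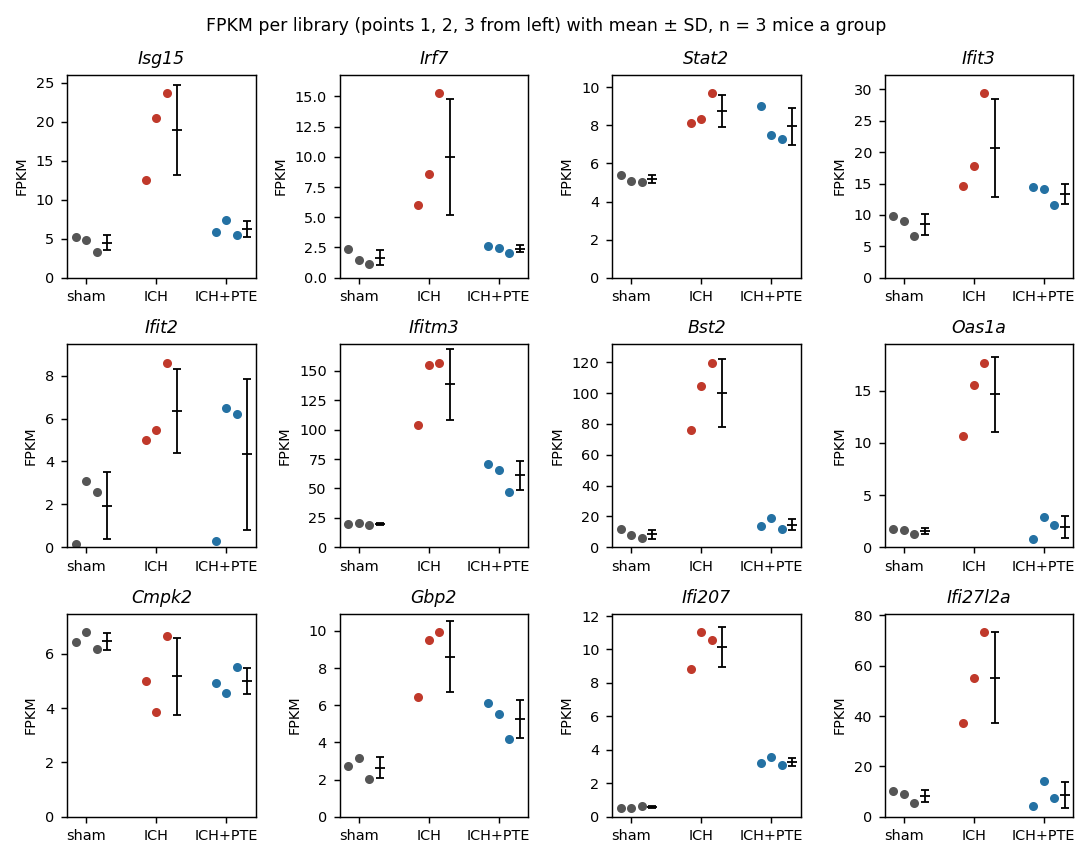
FPKM of 12 members in each library (points, libraries 1, 2 and 3 from left within a group) with the group mean ± SD at the right (n = 3 mice a group), every y axis starting at 0. ICH stands above sham in all but Cmpk2. ICH+PTE lies on both sides of sham for Oas1a and Ifi27l2a and stays above sham for Ifitm3 and Ifi207, and sham 1 and ICH+PTE 1 are near 0 for Ifit2.

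Isg15 makes a ubiquitin-like protein that is joined to new proteins during infection. It was at 5.16, 4.90 and 3.36 FPKM in sham, 12.6, 20.5 and 23.7 in ICH, and 5.86, 7.43 and 5.45 in ICH+PTE. ICH libraries were the highest, and every ICH+PTE library was slightly above the highest sham library. Isg15, whose promoter with 3 ISREs is printed above, rose by 1.94 ± 0.232 in ICH (limma adjusted p = 5.66e-05) and fell by 1.49 from ICH to ICH+PTE (limma adjusted p = 4.67e-04), and the 0.45 over sham was not called (limma adjusted p = 0.186).

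Trim30a, a ubiquitin ligase of mouse that dampens inflammatory signalling, was at 1.82, 1.99 and 1.31 FPKM in sham, 6.90, 10.7 and 11.0 in ICH, and 2.58, 4.59 and 3.61 in ICH+PTE. The 3 groups did not overlap. It rose by 2.17 ± 0.224 in ICH (limma adjusted p = 2.36e-05) and fell by 1.29 from ICH to ICH+PTE (limma adjusted p = 8.62e-04), with 0.87 left over sham (limma adjusted p = 0.02, a call lost under 3 of 19 alternatives).

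Usp18, which strips ISG15 from proteins and blocks signalling at IFNAR2, rose by 1.41 and fell by 1.22. The partners Dtx3l and Parp9, a ubiquitin ligase and an ADP-ribosyltransferase-like protein, rose by 1.41 and 1.78 and fell by 0.83 and 1.1, and their genes overlap on opposite strands. Parp14, a further ADP-ribosyltransferase, rose by 1.62 and fell by 1.24. Herc6, the main ISG15 ligase of mouse, was at 1.09, 1.18 and 1.0 FPKM in sham, 1.45, 1.5 and 1.9 in ICH, and 1.43, 1.72 and 1.87 in ICH+PTE. The ICH and ICH+PTE libraries lay above sham and overlapped each other. The rise of Herc6 by 0.41 ± 0.147 in ICH (limma adjusted p = 0.0320) was the smallest among the called members, and it lost its call under several alternatives.

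Guanylate-binding proteins are GTPases that attack the membranes around intracellular pathogens, and 3 of them, side by side on chromosome 3, were members. Gbp3 was at 3.78, 3.56 and 2.58 FPKM in sham, 8.96, 10.5 and 10.7 in ICH, and 5.29, 3.89 and 2.93 in ICH+PTE. ICH stood apart, and the lowest ICH+PTE library was within the sham range. Gbp3 rose by 1.48 ± 0.193 in ICH (limma adjusted p = 9.78e-05) and fell by 1.25 from ICH to ICH+PTE (limma adjusted p = 4.59e-04), and differed from sham by 0.23 in ICH+PTE (limma adjusted p = 0.407).

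Gbp2 was at 2.72, 3.14 and 2.02 FPKM in sham, 6.42, 9.49 and 9.94 in ICH, and 6.13, 5.51 and 4.16 in ICH+PTE. The groups did not overlap, although ICH 1 was close to ICH+PTE 1. It rose by 1.54 ± 0.201 in ICH (limma adjusted p = 9.89e-05) and was 0.88 above sham in ICH+PTE (limma adjusted p = 0.0122). Its fall by 0.65 from ICH to ICH+PTE (limma adjusted p = 0.0184) lost its call under 5 alternatives, with adjusted p up to 0.0950. Gbp7 rose by 1.02 and was 0.71 above sham in ICH+PTE (limma adjusted p = 1.83e-04 and 0.00828), with -0.32 between ICH+PTE and ICH (limma adjusted p = 0.0911).

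The PYHIN proteins bind DNA in the nucleus and cytosol, and both members, neighbours on chromosome 1, were among the genes with the steepest ratios. Ifi207 was at 0.548, 0.504 and 0.621 FPKM in sham, 8.82, 11.0 and 10.6 in ICH, and 3.20, 3.56 and 3.08 in ICH+PTE. The libraries of each group were tightly placed and the groups far apart. Ifi207 rose by 3.33 ± 0.122 in ICH (limma adjusted p = 2.43e-07), fell by 1.49 from ICH to ICH+PTE (limma adjusted p = 1.66e-05), and was 1.84 above sham in ICH+PTE (limma adjusted p = 4.36e-05). Ifi204, with 0.642 to 1.34 FPKM in sham, 7.49 to 10.8 after ICH and 2.5 to 3.98 in ICH+PTE, rose by 2.81, fell by 1.39 and was 1.43 above sham (limma adjusted p = 4.93e-06, 5.34e-04 and 0.00212).

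Among the remaining members, Lgals3bp, a secreted glycoprotein that binds galectins, was at 15.2, 15.3 and 9.55 FPKM in sham, 62.6, 77.4 and 85.9 in ICH, and 21.0, 22.7 and 15.6 in ICH+PTE. ICH lay far above, and the lowest ICH+PTE library was just above the highest sham library. It rose by 2.47 ± 0.203 in ICH (limma adjusted p = 6.31e-06) and fell by 1.91 from ICH to ICH+PTE (limma adjusted p = 5.82e-05), and 0.56 over sham was not called (limma adjusted p = 0.0707).

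Ifi27l2a, a small interferon-induced membrane protein, was at 10.3, 8.94 and 5.40 FPKM in sham, 37.2, 55.1 and 73.4 in ICH, and 4.34, 14.2 and 7.27 in ICH+PTE. The ICH libraries were the highest, and the ICH+PTE libraries lay on both sides of sham. It rose by 2.67 ± 0.389 in ICH (limma adjusted p = 1.95e-04), fell by 2.71 from ICH to ICH+PTE (limma adjusted p = 2.98e-04), and differed from sham by -0.04 in ICH+PTE (limma adjusted p = 0.950).

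Ifi35, which binds the partner protein NMI, rose by 2.14 and fell by 1.98. Rtp4, a chaperone of receptors at the cell surface, rose by 1.84 and fell by 1.25. Xaf1, a cell-death protein that binds XIAP, rose by 1.1 and was 0.77 above sham in ICH+PTE (limma adjusted p = 6.97e-04 and 0.0185, the second lost under 3 of 19 alternatives), with -0.32 between ICH+PTE and ICH (limma adjusted p = 0.181).

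**Figure D4:**
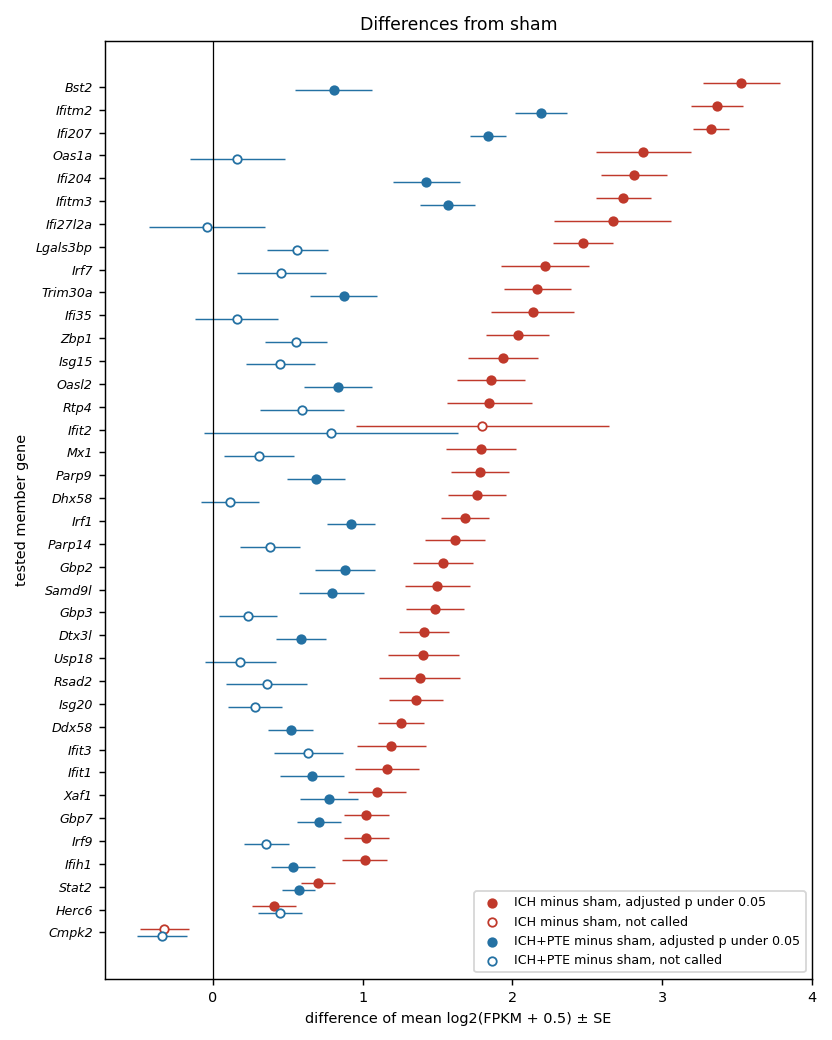
Difference from sham of the mean log2(FPKM + 0.5) ± SE (x axis) for ICH (red) and ICH+PTE (blue), for the 38 tested members sorted by the ICH difference. Filled points have a limma adjusted p under 0.05. ICH is filled in 36 members and ICH+PTE in 18, with the largest ICH+PTE differences at Ifitm2 (2.19), Ifi207 (1.84) and Ifitm3 (1.57).

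The ICH libraries were ordered alike by most members. ICH 1 was the lowest ICH library in 36 of the 39 members and ICH 3 the highest in 36, while over all genes tested ICH 1 was the lowest in 38.5% and ICH 3 the highest in 33.1%. In sham, sham 3 was the lowest library in 30 members, against 38.3% of all genes tested, and the highest was sham 1 in 18 and sham 2 in 19. In ICH+PTE the members were divided, with ICH+PTE 1 lowest in 19 and ICH+PTE 3 in 17, and with ICH+PTE 2 highest in 24. The summed FPKM of the 39 members was 132, 129 and 99.7 in sham, 508, 684 and 794 in ICH, and 236, 271 and 202 in ICH+PTE. This was 0.0370% to 0.0469% of all FPKM in sham, 0.159% to 0.256% after ICH and 0.0701% to 0.0846% in ICH+PTE.

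The 16 members with ISRE letters and the 14 without were set beside each other as a description. All 16 with an ISRE were called higher in ICH, with a median difference of 1.51, and 11 of the 14 without were called higher, with a median of 1.45 (Ifi44 included). The 3 not called were Ifit2, Cmpk2 and the untested Ifi44. From ICH to ICH+PTE, 12 of the 16 and 9 of the 14 were called lower. Over all genes tested 31.6% were called higher in ICH than in sham and 30.5% lower in ICH+PTE than in ICH. The 16 and the 14 were not tested against each other.

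Interferons themselves were at or near 0. Of 15 interferon genes listed, 5 were found in the table and none reached the filter. Ifnb1, the gene of interferon beta, was listed at 0.0405 FPKM in ICH 2 and at 0 in the other 8 libraries. Ifng, the gene of interferon gamma, was listed at 0.0452 in ICH 1, 0.0919 in ICH+PTE 2 and 0 elsewhere. Ifnab was listed at 0.0216 in ICH 2 and Ifne at 0.0774 in sham 3, with 0 elsewhere, and Ifnz was between 0.00528 and 0.0448 in all libraries. The other 10 interferon genes were not analysed here.

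Receptors and transducers largely moved with the members. Of 9 tested, 7 were called higher and 1 lower after ICH, 7 lower and 0 higher in ICH+PTE than in ICH, and 3 higher and 0 lower in ICH+PTE than in sham. Over all genes tested 31.6% were called higher and 32.1% lower after ICH, and 26.4% higher and 30.5% lower from ICH to ICH+PTE. In ICH+PTE against sham 11.3% were called higher and 12.1% lower. Ifnar2, the signalling chain of the type I receptor, was at 5.04, 5.44 and 4.62 FPKM in sham, 21.4, 24.5 and 23.3 in ICH, and 5.97, 9.26 and 7.14 in ICH+PTE. It rose by 2.09 ± 0.144 (limma adjusted p = 2.46e-06) and fell by 1.58 (limma adjusted p = 2.64e-05), and the groups did not overlap. Its partner chain Ifnar1 rose by 0.88 and fell by 0.75.

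Of the interferon gamma receptor, Ifngr1 rose by 1.56 and fell by 1.02, and Ifngr2 rose by 1.23 and fell by 1.08. Il10rb, a chain shared by the receptors of interferon lambda and of IL-10, rose by 2.79 and fell by 2.17, while Ifnlr1, the specific chain of the lambda receptor, was at 0.0126 to 0.0831 FPKM in sham, 0.151 to 0.301 after ICH and 0.301 to 0.448 in ICH+PTE and was not tested. The kinase gene Jak2 fell by 0.31 in ICH (limma adjusted p = 0.0258), a call lost without sham 2, sham 3, ICH 1 or ICH 3. Those above sham in ICH+PTE were Ifnar2, Ifngr1 and Il10rb, and only Ifngr1 was so called under every alternative.

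Genes that sense danger and induce interferon moved the same way. Of 14 tested, 12 were called higher and 1 lower after ICH, 11 lower and 1 higher in ICH+PTE than in ICH, and 5 higher and 0 lower in ICH+PTE than in sham. The shares over all genes tested are those given with the receptors. Irf5 and Irf8, factors of myeloid cells, rose by 2.83 and 2.69 and fell by 2.42 and 2.69. Tlr7, an endosomal RNA receptor, rose by 2.64, fell by 1.1 and was 1.54 above sham in ICH+PTE (limma adjusted p = 1.29e-04). Sting1, the adaptor of cytosolic DNA sensing, rose by 2.36 and fell by 1.93. The gene lower in ICH was Traf3, by 0.37 (limma adjusted p = 0.0466), and the gene higher in ICH+PTE than in ICH was Tbk1, by 0.29 (limma adjusted p = 0.0353), both of them calls that several alternatives lost.

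Inhibitors did not all move one way. Of 8 tested, 5 were called higher and 2 lower after ICH, 3 lower and 2 higher in ICH+PTE than in ICH, and 1 higher in ICH+PTE than in sham. With so few genes, the shares called lower in ICH and called either way in ICH+PTE are close to those over all genes given above. Socs3, which blocks JAK kinases downstream of several cytokines, was at 0.855, 2.08 and 2.04 FPKM in sham, 16.6, 18.7 and 17.1 in ICH, and 17.0, 14.0 and 8.47 in ICH+PTE. Its ICH and ICH+PTE libraries overlapped, and both groups lay far above sham. Socs3 rose by 3.11 ± 0.279 in ICH (limma adjusted p = 1.06e-05) and was 2.67 above sham in ICH+PTE (limma adjusted p = 2.78e-04), with -0.45 between ICH+PTE and ICH (limma adjusted p = 0.194).

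Ptpn6, a phosphatase of blood-lineage cells, rose by 3.20 and fell by 2.51, Trex1, a DNA exonuclease, rose by 1.89 and fell by 1.93, and Samhd1, which degrades nucleotides, rose by 1.21 and fell by 1.08. Pias1, which restrains interferon signalling, and Adar, which edits double-stranded RNA, moved the other way. Pias1 fell by 0.53 in ICH and rose by 0.52 from ICH to ICH+PTE, and Adar fell by 0.83 and rose by 0.57 (limma adjusted p = 0.00491 and 0.00680 for Pias1, 1.77e-04 and 0.00242 for Adar).

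A wider list of interferon-stimulated genes that are not members, also chosen with earlier results of these data known, moved in the same directions. Of 49 tested, 48 were called higher and 0 lower after ICH, 41 lower and 0 higher in ICH+PTE than in ICH, and 20 higher and 0 lower in ICH+PTE than in sham. Over all genes tested 31.6% were called higher after ICH, 30.5% lower from ICH to ICH+PTE, and 11.3% higher in ICH+PTE than in sham. Ifi30, a lysosomal thiol reductase, rose by 4.52 and fell by 2.67. Ifitm1 rose by 3.16 and fell by 1.54, Psmb8, a subunit of the immunoproteasome, rose by 3.15 and fell by 2.09, and Slfn2, which myeloid and T cells express, rose by 3.03 and fell by 1.63. Znfx1, an RNA helicase, was not called in any comparison. Ly6a, a surface antigen of endothelium and haematopoietic cells, was at 12.4 to 21.6 FPKM in sham, 44.3 to 48.2 after ICH and 51.4 to 94.0 in ICH+PTE, above sham by 1.49 and 1.96, and its ICH+PTE libraries all lay above its ICH libraries (difference 0.47, limma adjusted p = 0.111), a difference called with quantile scaling and with haemoglobin and mitochondrially encoded genes left out of the scaling.

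Myeloid genes moved with the members. In a bulk sample fewer cells of a type and less RNA per cell cannot be told apart. All 8 pan-myeloid genes (Ptprc, Csf1r, Itgam, Aif1, Tyrobp, Laptm5, Spi1 and Fcer1g) were called higher in ICH than in sham, with a median difference of 3.04, and all 8 were lower in ICH+PTE than in ICH, with a median of -2.49. Against sham 3 of the 8 were called higher in ICH+PTE, with a median of 0.48. For these 3 comparisons the shares over all genes tested are given with the receptors. Their summed FPKM was 103, 116 and 86.2 in sham, 1006, 1267 and 1163 in ICH, and 109.6, 212 and 149 in ICH+PTE.

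The summed FPKM of the members was thus 1.29, 1.11 and 1.16 times that of the pan-myeloid genes in sham, 0.505, 0.539 and 0.682 times in ICH, and 2.16, 1.28 and 1.35 times in ICH+PTE. The ICH ratios were the lowest, and those of ICH+PTE overlapped those of sham. Without the 4 members of highest mean the ratios were 0.676 to 0.776 in sham, 0.210 to 0.299 after ICH and 0.606 to 0.916 in ICH+PTE. The part of myeloid RNA in the members' differences was not tested.

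**Figure D5:**
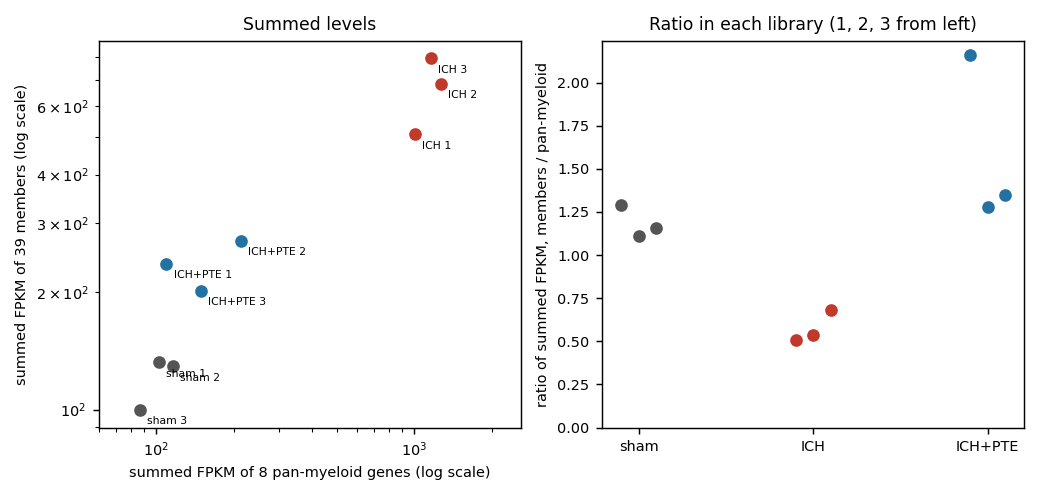
Left, summed FPKM of the 39 members (y) against that of 8 pan-myeloid genes (x) in each of the 9 libraries, both on log scales; right, their ratio in each library by group, from 0. ICH libraries are highest on both axes and lowest in the ratio (0.505 to 0.682), and ICH+PTE 1 has the highest ratio (2.16).

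Markers of other cells moved too. The 8 genes of infiltrating monocytes and macrophages summed to 38.3 to 68.7 FPKM in sham, 2630 to 3289 after ICH and 64.4 to 145 in ICH+PTE, led by Lyz2. The 9 neutrophil genes summed to 5.34 to 5.98, 38.4 to 54.6 and 19.9 to 32.6 FPKM in the same order. Of the 4 tested, 2 were called lower and 0 higher in ICH+PTE than in ICH, where 30.5% and 26.4% of all genes tested were. Ly6g, far under the filter of 1 FPKM, was at 0 in all sham and ICH libraries and 0.0542 to 0.0614 in ICH+PTE. The 11 genes of T and NK cells were low, with sums of 0.846 to 1.62, 3.90 to 7.40 and 0.534 to 2.45 FPKM, and Cd3e was at most 0.188 FPKM in any library. Of 7 genes of plasmacytoid dendritic cells, the main producers of interferon alpha, Il3ra was called higher in ICH and Pacsin1, which neurons also express, lower, and the sums were 44.1 to 51.5, 28.8 to 30.4 and 36.0 to 42.2 FPKM. Of 7 endothelial genes 6 were called higher in ICH than in sham, and of 6 astrocyte genes 4 were called higher and 1 lower, where 31.6% of all genes tested were called higher and 32.1% lower. In ICH+PTE the endothelial genes were called lower than in ICH in 4 and higher in 1, and higher than in sham in 5. The astrocyte genes were called lower than in ICH in 3 and higher in 1, and higher than in sham in 2 and lower in 1. All 7 genes of fibroblasts and mural cells were called higher in ICH, with a median difference of 2.61, and lower in ICH+PTE than in ICH, with a median of -1.38. Of 7 homeostatic microglia genes 4 were called higher in ICH, and all 7 were lower in ICH+PTE than in ICH, with a median of -1.71. Against sham 0 of the 7 were called higher and 2 lower in ICH+PTE, with a median of -0.60. Over all genes tested 11.3% were called higher and 12.1% lower in that comparison. The part of each cell type in the members' differences was not tested.

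Some members share reads or letters with close relatives, and their values are uncertain to that extent. Ifitm2 and Ifitm3, Ifi204 and Ifi207, the 3 Gbp genes, Oas1a, Ifit3 and Trim30a have close paralogs, and the handling of reads that match several genes is a step not given in sources used here. In GENCODE M21, 15 members overlap another gene, 11 of them a gene on the opposite strand. The libraries kept the strand, per the labels' protocols, but no source used here says whether counting used it.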

How the data were processed

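RNA was selected with oligo(dT) from total RNA with an integrity number over 7 and made into strand-keeping libraries by a dUTP method, per the labels' protocols. The authors deposited 1 table of FPKM values for 36346 genes in 9 libraries, and the submitters' processing notes name StringTie 1.3.4d, HISAT2 2.0.4 and cutadapt 1.9. No genome build is given in sources used here, and 91.7% of 36224 shared gene identifiers had the start and end of GENCODE M21 (GRCm38). Libraries were grouped by the labels, and 0 columns were left unmatched. FPKM are not counts. At most 12.4% of low values per library were whole multiples of a common step (tolerance 0.02 of a step), so whole reads were not recovered and the depth is unknown.

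Genes with at least 1 FPKM in at least 3 libraries (15376) were tested on log2(FPKM + 0.5) with limma 3.58.1 in R 4.3.3, with 9 libraries and a mean for each group in the fit (6 residual degrees of freedom), a mean-variance trend and Benjamini-Hochberg adjustment over all genes tested. Differences on this scale understate those of low genes. P-values weigh a difference of group means against the spread between mice within groups, pooled over the 3 groups and drawn toward the trend. Motifs were sought with Python 3.11.15 in RefSeq promoters (GRCm38.p6). No protein sequences were used here.

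The members and the lists were chosen with earlier results of these data known. Per role group, values in every library are given for the member with the highest mean and those with the largest difference in ICH minus sham and in ICH+PTE minus ICH, and further members where their calls differed. From each pathway list the 4 called genes with the largest difference in ICH minus sham are named, with the receptor chains and interferon genes above 0, and 1 gene so chosen is not reported here. Jak2, Traf3, Tbk1, Pias1, Adar, Znfx1 and Ly6a were named after their values were seen. Alternatives were other pseudocounts, no filter, TPM, quantile and median-of-ratios scaling, haemoglobin and mitochondrially encoded genes left out, only the groups compared, array weights, a replicate block, and each library left out.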

Additional observations from a re-analysis of the deposited data

How the results depend on the processing

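Members higher in ICH than in sham numbered 36, with 32 to 37 when each library was left out in turn, and Herc6 lost its call under some alternatives. Zbp1, Mx1 and Isg20 fell under the filter and were not tested without any 1 ICH library. The other 32 were called in all 19 alternatives, and those 3 in the 16 that tested them. Members lower in ICH+PTE than in ICH numbered 30 (24 to 31 with each library left out), of which Ifih1, Samd9l and Gbp2 lost their calls under some alternatives that tested them. The 18 members above sham in ICH+PTE became 8 with no filter and 8 to 18 with each library left out. No member or listed pathway gene changed sign with a call. The median ICH difference was 1.97 with a pseudocount of 0.1, 1.40 with a pseudocount of 1 and 1.42 without haemoglobin and mitochondrially encoded genes. Members lower in ICH than in sham became 1 (Cmpk2) with TPM, without those genes, and without ICH 3 (0 to 1 with each library left out). In ICH+PTE against sham, receptors and transducers called became 1 with TPM and 1 with the groups compared alone (1 to 4 with each library left out), induction genes ranged from 3 to 7 and inhibitors from 1 to 2, and inhibitors became 2 without sham 1 and ICH+PTE 1. Scaling moved the median of all genes tested in ICH minus sham to -0.19 with TPM, -0.12 with quantile scaling and -0.29 without haemoglobin and mitochondrially encoded genes, and in ICH+PTE minus ICH to 0.22 with the last. Calls over all genes then were 3989 higher and 5987 lower with TPM, and 3489 and 7073 without those genes, in ICH minus sham, and 6144 higher and 3152 lower in ICH+PTE minus ICH without them. Replicate numbers are shared between groups in the labels but name different mice. Same-numbered libraries correlated at 0.003 to 0.252 in their deviations, the highest correlation of 6 of the 9 libraries was with a library of its own number, and 1 of 9 correlated best with its own number in both other groups, which is a hint from the data and not from the design. With a replicate block, 37 members were higher in ICH, 30 lower in ICH+PTE than in ICH, and 16 above sham in ICH+PTE. Depth is unknown, so what it limits could not be stated.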
